A study of Mus musculus with 16 samples.

Results

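The integrin chains and laminin chains of the mouse kidney are described here, in kidneys with and without deletion of Vhl and with and without acute injury by muscle breakdown. Members are the genes whose array symbol names an integrin alpha or beta chain or a laminin alpha, beta or gamma chain, and which have a row that names no other gene. They number 37 of the 19938 genes tested, of which 27 are integrin chains and 10 are laminin chains. Itgad had a second row, and the brighter row stood for it. Itgb1bp1, Itgb1bp2 and Itgb3bp share the opening letters of the symbols but encode no integrin chain and were left out. The laminin chain Lamb4 had no row of its own and is not analysed here.

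Integrins are receptors made of 1 alpha and 1 beta chain that span the cell membrane, bind matrix or other cells outside and link to actin or keratin filaments inside. Laminins are trimers of 1 alpha, 1 beta and 1 gamma chain that form a sheet in every basement membrane, the layer on which tubule cells and glomerular cells rest. In the kidney, integrins of the beta1 group hold tubule cells and podocytes to that layer, integrins of the alphav group bind ligands with an RGD motif, and loss of attachment of tubule cells is a known feature of acute tubular injury.

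All mice carried a transgene set in which doxycycline deletes Vhl through Pax8-rtTA, which acts in renal tubule cells, so the other kidney cells keep the gene. Vhl encodes the protein that marks hypoxia-inducible factors for breakdown. The 16 arrays, 1 per biological replicate, fall into 4 groups. Control holds 3 untreated mice with Vhl intact. VHL-KO holds 3 mice given doxycycline under the skin at 0.1 mg for each 10 g of weight, 4 days before tissue was taken. AKI holds 5 mice with Vhl intact injected under isoflurane with 0.05 ml of 50% glycerol for each 10 g, into muscle of a hind limb, with drinking water withheld from 20 h before to 24 h after. VHL-KO/AKI holds 5 mice given both doxycycline and glycerol. Doxycycline and the deletion cannot be told apart in this design, nor can glycerol, anaesthesia and water withdrawal. The labels give no age, and they give no sex for the single animals.

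Levels are log2 values as deposited, so a difference of 1 is a doubling. A level was never set against that of another gene, since probe sets differ in brightness. Differences, their standard errors (SE) and Benjamini-Hochberg adjusted p-values come from 1 limma fit over all genes and all 16 arrays, and a gene was called at an adjusted p under 0.05. Group levels are means ± SD over the arrays.

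The labels were checked first. Vhl was at 7.06 ± 0.04 in control and 6.65 ± 0.04 in VHL-KO (n = 3 each), a difference of -0.40 (limma adjusted p = 0.0565), and at 7.16 ± 0.12 in AKI and 6.50 ± 0.12 in VHL-KO/AKI (n = 5 each), a difference of -0.67 (limma adjusted p = 9.98e-05). The VHL-KO arrays were all below the control arrays and the VHL-KO/AKI arrays were all below the AKI arrays. The injury markers Havcr1 and Lcn2 were 5.75 and 5.13 higher in AKI than in control on the log2 scale. Kidney markers were present in all groups, with Slc34a1 of the proximal tubule between 12.35 and 13.46 and Umod of the thick ascending limb between 12.70 and 13.34.

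2 features of the arrays touch the results. The array AKI 4 correlated with the other AKI arrays at a mean r of 0.973, against 0.988 to 0.989 for those others, and its injured-tubule list lay 1.02 below and its proximal tubule list 1.14 above their mean. Sex-linked signal also split along injury. All 6 uninjured arrays read 10.23 or more for Xist, and none of the 10 injured arrays read above 5.08, while the mean of 3 Y-linked genes was at least 7.77 in every injured array and at most 5.01 in the uninjured arrays other than Control 3, where it was 7.43. Injury and sex therefore cannot be told apart in AKI against control or in VHL-KO/AKI against VHL-KO. Once the sex-linked level was a covariate of the fit, limma called 0 of the 19938 genes in either of these comparisons (712 and 359 genes at an unadjusted p under 0.05), members included. All AKI and VHL-KO/AKI arrays were low for Xist and high for the Y-linked genes.

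**Figure D1:**
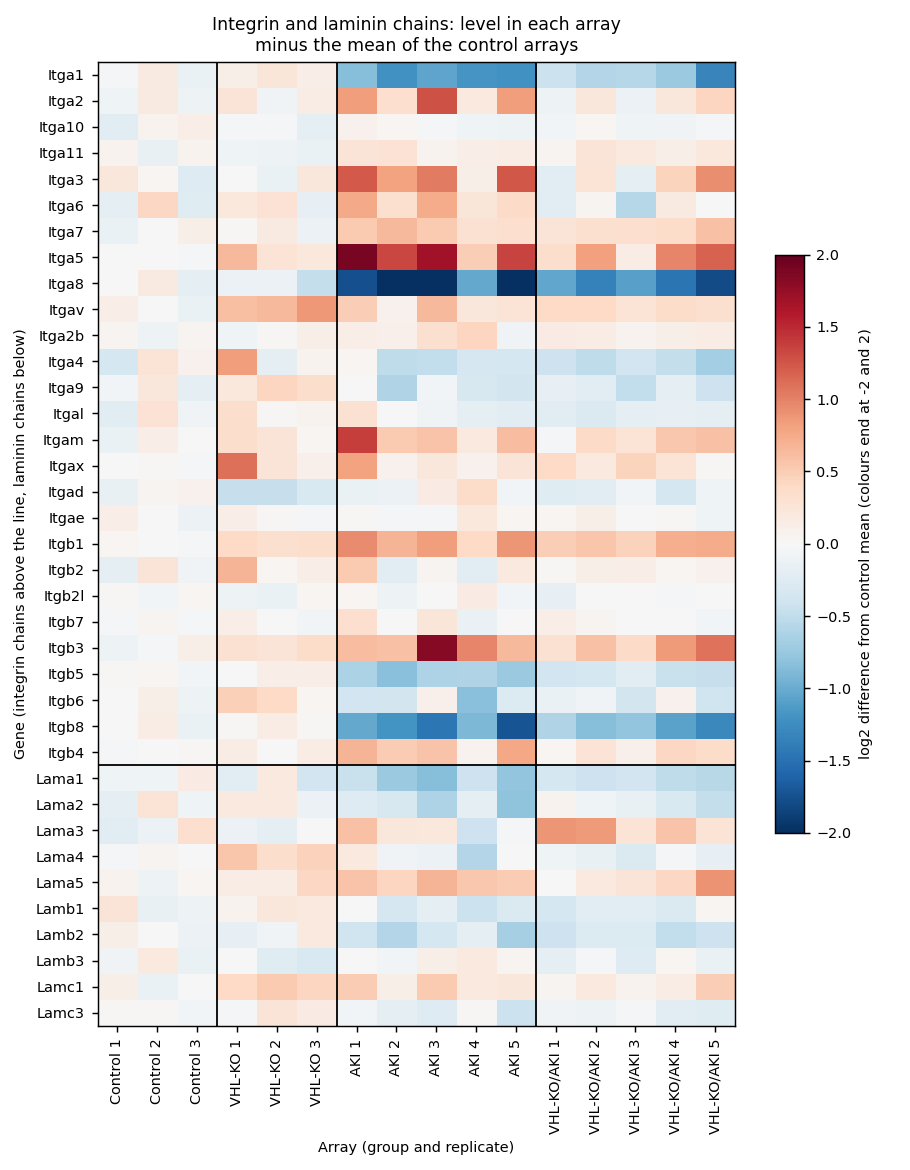
Each column is 1 of the 16 arrays and each row is 1 of the 37 chains, ordered by role; colour gives the log2 level minus the mean of the 3 control arrays. The columns of the injured groups hold both red chains (Itga5, Itgb1, Itgb3) and blue chains (Itga8, Itgb8, Itga1), and AKI 4 is paler than the other AKI arrays for Itga5, Itga8, Itgb1 and Itgb8.

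With intact Vhl, chains differed in both directions between AKI and control, a comparison in which injury and sex cannot be told apart. Of the 37 members, 17 (45.9%) were called in AKI against control, against 28.1% of all genes tested. The 10 higher members were Itga2, Itga3, Itga5, Itga7, Itgav, Itgam, Itgb1, Itgb3, Itgb4 and Lama5 (13.2% of all genes were called higher), and the 7 lower members were Itga1, Itga8, Itgb5, Itgb8, Lama1, Lama2 and Lamb2 (14.9% of all genes were called lower). The arrays of the 2 groups did not overlap for 9 higher and 7 lower members (27.3% of all genes in either direction, 13.5% higher and 13.8% lower). The median difference was 0.06 over the members and 0.02 over all genes. By class, 9 integrin chains rose and 4 fell, while 1 laminin chain rose and 3 fell. RNA from whole kidney was measured, so fewer cells of a type and less RNA per cell cannot be told apart.

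Among the RGD-binding alpha chains, Itga8 fell and Itga5 rose. Itga8, which pairs with beta1 and binds nephronectin, read 8.65, 8.82 and 8.48 in the controls and 6.89, 6.57, 6.18, 7.62 and 6.59 in the AKI arrays. Every AKI array was below every control array, and AKI 4 was the highest of the AKI arrays. The mean fell from 8.65 ± 0.17 (n = 3) to 6.77 ± 0.54 (n = 5), which is 3.68-fold lower (log2 difference -1.88, SE 0.249, limma adjusted p = 9.74e-05).

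Itga5, the alpha chain of the fibronectin receptor, read 6.16, 6.17 and 6.13 in the controls and 8.06, 7.49, 7.83, 6.64 and 7.50 in the AKI arrays. The groups did not overlap, and AKI 4 was again the array nearest to control. The mean rose from 6.15 ± 0.02 (n = 3) to 7.50 ± 0.54 (n = 5), which is 2.55-fold higher (log2 difference 1.35, SE 0.272, limma adjusted p = 0.00189). Itgav, the alpha chain that several beta chains share, differed by 0.34 (limma adjusted p = 0.0285), with overlapping arrays. Itga2b, the platelet chain that pairs with beta3, did not pass the test (difference 0.18).

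The collagen-binding alpha chains went separate ways. Itga1, a receptor for collagen IV in the basement membrane, read 10.03, 10.25 and 9.93 in the controls and 9.22, 8.86, 9.01, 8.89 and 8.86 in the AKI arrays. No AKI array reached the lowest control array, and AKI 4 lay among the other AKI arrays. The mean fell from 10.07 ± 0.16 (n = 3) to 8.97 ± 0.15 (n = 5), which is 2.15-fold lower (log2 difference -1.10, SE 0.158, limma adjusted p = 0.000169). Itga2, the other widely studied collagen receptor chain, rose by 0.70 (limma adjusted p = 0.0171). Itga10 and Itga11 differed by -0.02 and 0.18 and did not pass.

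All members of the laminin-binding group of alpha chains were higher in AKI than in control by mean, and Itga3 and Itga7 passed the test. Itga3, which with beta1 anchors tubule cells and podocytes to laminin-511 and laminin-521, read 8.13, 7.95 and 7.65 in the controls and 9.14, 8.71, 8.94, 8.03 and 9.15 in the AKI arrays. AKI 4 was within the control range and the other AKI arrays were above it. The difference was 0.89 (SE 0.269, limma adjusted p = 0.0221) with all arrays and 1.08 (limma adjusted p = 0.0017) without AKI 4. Itga7 differed by 0.46 (limma adjusted p = 0.00246). Itga6, which pairs with beta1 and beta4, differed by 0.49 (limma adjusted p = 0.0702), and by 0.55 (limma adjusted p = 0.0397) without AKI 4.

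Of the beta chains outside the leukocyte group, Itgb1, Itgb3 and Itgb4 rose and Itgb5 and Itgb8 fell. Itgb1, the beta chain of most integrins of tubule cells, read 10.22, 10.17 and 10.16 in the controls and 11.13, 10.87, 11.01, 10.58 and 11.06 in the AKI arrays. The groups did not overlap, and AKI 4 was the lowest AKI array. The mean rose from 10.19 ± 0.03 (n = 3) to 10.93 ± 0.22 (n = 5), which is 1.68-fold higher (log2 difference 0.75, SE 0.105, limma adjusted p = 0.000155). Itgb4, the beta chain of hemidesmosomes, rose by 0.52 (limma adjusted p = 0.00749), with 5.91 to 5.96 in the controls, 6.45 to 6.72 in the other AKI arrays, and AKI 4 at 0.57 below the mean of those others.

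Of the 4 beta chains that pair with alphav, Itgb3 rose, Itgb5 and Itgb8 fell, and Itgb6 did not pass. Itgb8, known for releasing active TGF-beta from its latent complex, read 10.95, 11.09 and 10.81 in the controls and 9.93, 9.76, 9.51, 10.06 and 9.23 in the AKI arrays. The AKI arrays all lay below the controls. The mean fell from 10.95 ± 0.14 (n = 3) to 9.70 ± 0.33 (n = 5), which is 2.39-fold lower (log2 difference -1.26, SE 0.171, limma adjusted p = 0.000117).

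Itgb5, whose pair with alphav binds vitronectin, read 9.94, 9.95 and 9.86 in the controls and 9.29, 9.08, 9.29, 9.31 and 9.18 in the AKI arrays. It had the smallest adjusted p of the 37 members in this comparison, with a difference of -0.69 (SE 0.0693, limma adjusted p = 1.41e-05) and no overlap. Itgb3, the beta chain of the platelet and osteoclast integrins, rose by 0.93 (limma adjusted p = 0.00886), from 5.13, 5.21 and 5.35 in the controls to 5.85, 5.82, 7.05, 6.20 and 5.88 in the AKI arrays, with AKI 3 the highest. Itgb6, an epithelial activator of TGF-beta, differed by -0.35.

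Among the 8 leukocyte chains, Itgam was the member that passed. Itgam, the alpha chain of the complement receptor of neutrophils and macrophages, read 4.69, 4.95 and 4.81 in the controls and 6.21, 5.35, 5.39, 5.01 and 5.44 in the AKI arrays. The arrays did not overlap, and AKI 1 was the highest. The difference was 0.66 (SE 0.203, limma adjusted p = 0.0235). Of 8 neutrophil markers, 6 were called higher in the same comparison, and the mean of that list ranged from 4.55 to 4.57 in the controls and from 5.17 to 6.05 in the AKI arrays. Of 8 macrophage markers, 2 were called higher and 1 lower, with list means from 6.52 to 7.19 and from 6.60 to 7.48. Over all genes, 13.2% were called higher and 14.9% lower. The part of either cell type in the Itgam difference was not tested. The other leukocyte chains (Itgal, Itgax, Itgad, Itgae, Itgb2, Itgb2l and Itgb7) differed by -0.03 to 0.29.

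Among the laminin chains, Lama5 rose and Lama1, Lama2 and Lamb2 fell. Lama5, the alpha chain of laminin-511 and laminin-521 of adult tubule and glomerular basement membrane, read 7.56, 7.39 and 7.53 in the controls and 8.06, 7.93, 8.18, 8.03 and 8.004 in the AKI arrays. The groups did not overlap, AKI 4 lay among the other AKI arrays, and the difference was 0.55 (SE 0.145, limma adjusted p = 0.0105). Lamb2, the beta chain of laminin-521, moved the other way, from 8.44, 8.32 and 8.20 to 7.92, 7.73, 7.96, 8.14 and 7.66, a difference of -0.44 (SE 0.108, limma adjusted p = 0.00706). AKI 4 was the highest AKI array for Lamb2 and still lay below the controls.

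Lama1, the alpha chain of laminin-111 of the developing kidney and of some adult tubules, read 6.48, 6.49 and 6.75 in the controls and 6.12, 5.83, 5.72, 6.17 and 5.79 in the AKI arrays, a difference of -0.65 (SE 0.13, limma adjusted p = 0.00175) with no overlap. Lama2, the alpha chain of laminin-211, differed by -0.44 (limma adjusted p = 0.049). Lamc1, the gamma chain of nearly all of these trimers, differed by 0.31 (limma adjusted p = 0.0507), and by 0.35 (limma adjusted p = 0.0336) without AKI 4. For laminin-521, then, the alpha chain rose, the beta chain fell and the gamma chain did not pass with all arrays. Lama3 and Lamb3, chains of epithelial laminins, differed by 0.12 and 0.06 and did not pass. The remaining chains Lama4, Lamb1 and Lamc3 differed by -0.12, -0.25 and -0.18 and did not pass.

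**Figure D2:**
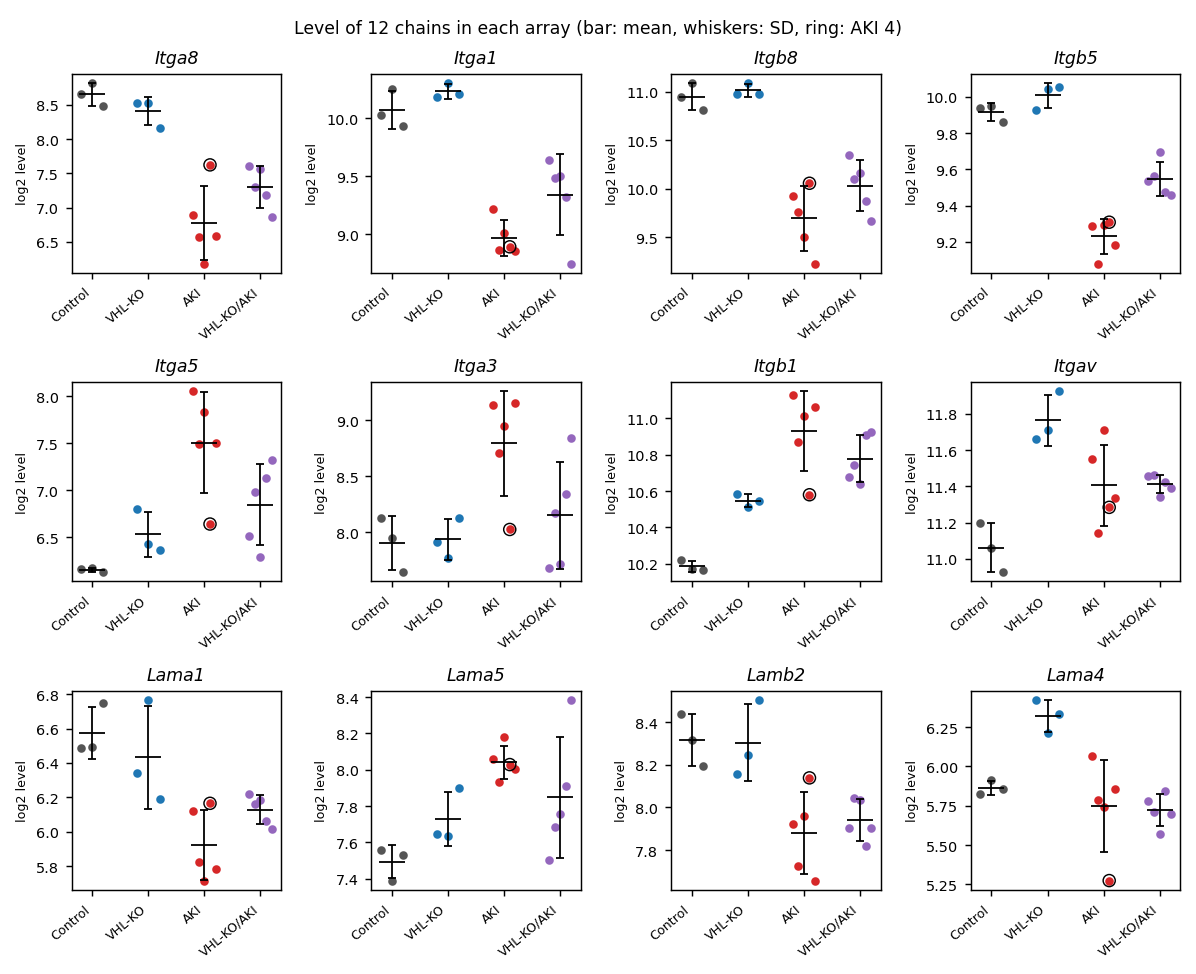
Each panel is 1 of 12 chains and each point 1 array, on a log2 axis of its own; bars are group means, whiskers SD (n = 3, 3, 5 and 5), and the ring marks AKI 4. The control and AKI points do not overlap for Itga8, Itga1, Itgb8, Itgb5, Itga5, Itgb1, Lama1, Lama5 and Lamb2. The ringed point is the AKI array closest to the control mean for Itga8, Itgb8, Itgb5, Itga5, Itga3, Itgb1, Lama1 and Lamb2.

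AKI 4 was the AKI array closest to the control mean for 13 of the 17 called members. Without it, 19 members were called in AKI against control (34.2% of all genes), with Itga6 and Lamc1 added and none lost. Without Control 3, the control array that held both Xist and Y-linked signal, 12 were called (22.7% of all genes), and Itga2, Itga3, Itgam, Itgav and Lama2 no longer passed. With both arrays left out, a choice made after the data were seen, 16 of the 17 were called and Itgav was not (30.1% of all genes). Leaving out other single arrays also cost calls, of Itga2 and Itgam (Control 1, with 21.3% of all genes called), of Lama5 (Control 2, with 22.2%), and of Itga3, Itgav or Lama2 under several. Lama2, whose adjusted p lies just under the threshold, lost its call in 14 of 27 alternatives and changed sign under the sex-linked covariate.

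In kidneys without Vhl, 13 of the 37 members (35.1%) were called in VHL-KO/AKI against VHL-KO, against 13.6% of all genes. The 3 higher members were Itga7, Itga11 and Lama3 (4.66% of all genes were called higher), and the 10 lower members were Itga1, Itga4, Itga8, Itga9, Itgav, Itgb5, Itgb8, Lama4, Lamb1 and Lamb2 (8.91% of all genes were called lower). The arrays did not overlap for 4 higher and 11 lower members (24.3% of all genes in either direction, 9.42% higher and 14.9% lower). The median difference was -0.21 over the members and -0.01 over all genes. Itga1, Itga7, Itga8, Itgb5, Itgb8 and Lamb2 were called in the same direction in both injury comparisons, and Itgav was called higher in one and lower in the other. The counts moved with single arrays. The members called higher numbered 0 without VHL-KO 1 or VHL-KO 3 (8.8% and 8.44% of all genes called in either direction). They numbered 1 without VHL-KO 2 or VHL-KO/AKI 4 (9.27% and 10%). The calls of Itgav, Lamb1 and Lamb2 did not hold under any of the 3 other scalings tried. The calls of Itga1, Itga8, Itga9, Itgb5, Itgb8 and Lama4 held without any single array.

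Itga8 read 8.53, 8.53 and 8.17 in the VHL-KO arrays and 7.61, 7.30, 7.57, 7.18 and 6.86 in the VHL-KO/AKI arrays, without overlap. The mean fell from 8.41 ± 0.21 (n = 3) to 7.30 ± 0.31 (n = 5), which is 2.15-fold lower (log2 difference -1.11, SE 0.249, limma adjusted p = 0.0086). Itgb8 read 10.98, 11.10 and 10.98 in the VHL-KO arrays and 10.35, 10.10, 10.16, 9.88 and 9.67 in the VHL-KO/AKI arrays, which are other animals. Itga1 read 10.18, 10.31 and 10.21 in the VHL-KO arrays and 9.64, 9.48, 9.50, 9.32 and 8.75 in the VHL-KO/AKI arrays. Both chains were lower in every injured array, by 0.98 for Itgb8 (SE 0.171, limma adjusted p = 0.00174) and 0.89 for Itga1 (SE 0.158, limma adjusted p = 0.0019).

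Lama4, the alpha chain of the laminins of blood vessels, read 6.42, 6.21 and 6.33 in the VHL-KO arrays and 5.78, 5.71, 5.57, 5.85 and 5.70 in the VHL-KO/AKI arrays, a difference of -0.60 (SE 0.127, limma adjusted p = 0.00614). Its Vhl-deleted uninjured arrays were the highest of all 16, and the injured arrays lay near the control level of 5.86 ± 0.04 (n = 3). The endothelial list, 8 markers, ran from 9.74 to 10.00 in VHL-KO and from 9.09 to 9.42 in VHL-KO/AKI, and 5 of its 8 markers were called lower (8.91% of all genes). The part of that list in the Lama4 difference was not tested. Itga4 and Itga9, which form receptors for VCAM-1, fibronectin and tenascin, fell by 0.73 (limma adjusted p = 0.0219) and 0.63 (limma adjusted p = 0.00579). Itga4 read 6.72 in VHL-KO 1 against 5.70 and 5.96 in the other VHL-KO arrays, and without VHL-KO 1 its difference was -0.43 (limma adjusted p = 0.123). The lymphocyte list was high in the same array, at 5.35 against 4.79 and 4.74, with 1 of its 8 markers called lower in this comparison and a list mean from 4.54 to 4.66 in VHL-KO/AKI, and its part in the Itga4 difference was not tested. Lama3, an alpha chain of epithelial laminins, rose by 0.68 (SE 0.204, limma adjusted p = 0.0387), from 7.28, 7.21 and 7.39 to 8.29, 8.25, 7.68, 7.97 and 7.67.

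**Figure D3:**
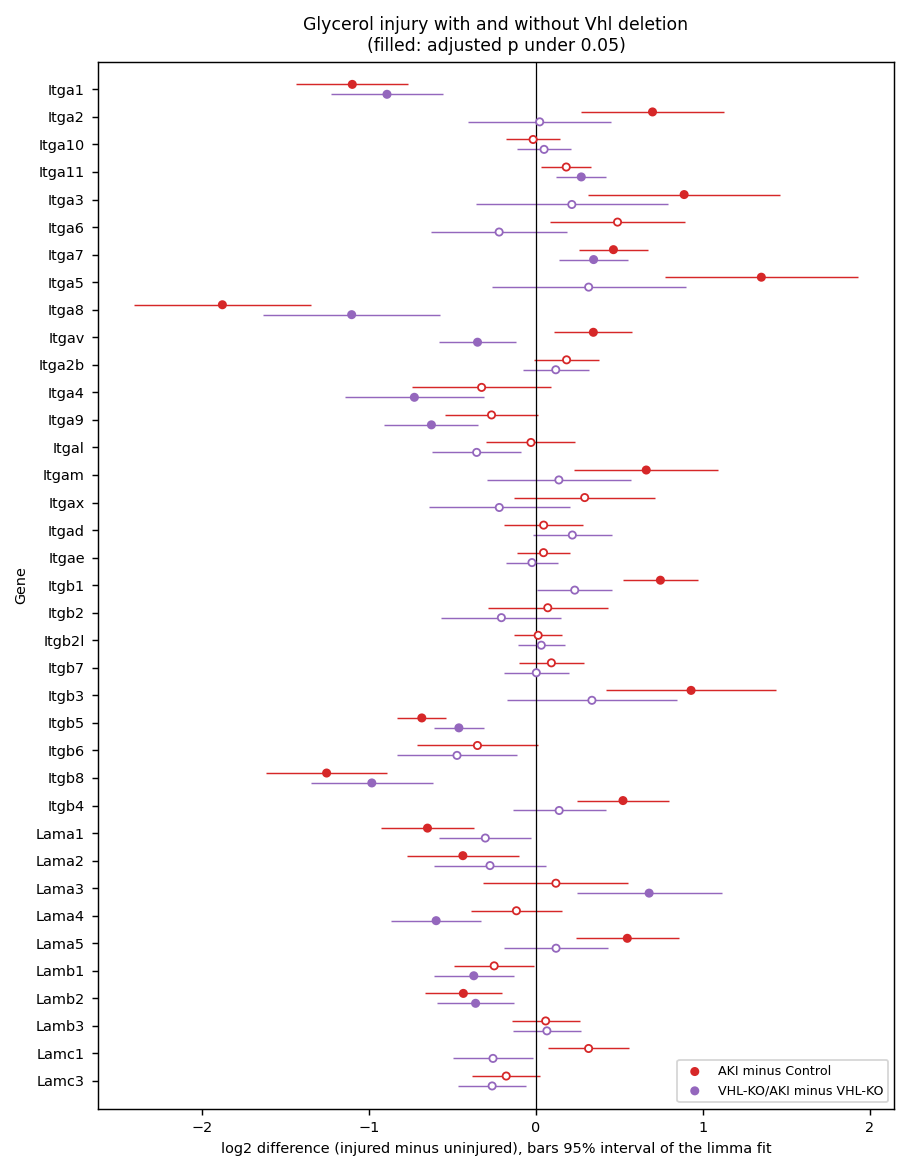
For each of the 37 chains, the red point is the log2 difference AKI minus control and the purple point the log2 difference VHL-KO/AKI minus VHL-KO, with 95% intervals of the limma fit; filled points passed the test. Itga8, Itgb8, Itga1 and Itgb5 lie left of zero in both comparisons, whereas Itga5, Itgb1, Itgb3 and Lama5 are filled only in the comparison with intact Vhl. That difference was tested with the interaction, which called 0 of the 37 chains with all arrays.

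In uninjured kidney, 1 of the 37 members (2.7%) was called in VHL-KO against control, against 0.527% of all genes (0.476% higher and 0.0502% lower). That member was Itgav, whose alphav chain binds RGD ligands such as vitronectin and the latent TGF-beta complex. It read 11.20, 11.06 and 10.93 in the controls and 11.66, 11.71 and 11.93 in the VHL-KO arrays. All deleted arrays were above all controls, and the mean rose from 11.06 ± 0.13 to 11.77 ± 0.14 (n = 3 each), which is 1.63-fold higher (log2 difference 0.70, SE 0.122, limma adjusted p = 0.0166). The call did not hold without Control 2, Control 3 or VHL-KO 3, nor with the sex-linked covariate or the replicate number as a block. Over all alternatives the difference ran from 0.62 to 0.77, and without Control 3 it was 0.64 (limma adjusted p = 0.103).

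At an unadjusted p under 0.05 there were 7 such members, against 1664 of all 19938 genes, and none of the other 6 passed after adjustment. The members Lama4, Lamc1, Itgb1, Itgax and Itga9 had higher means in VHL-KO, by 0.46, 0.45, 0.36, 0.49 and 0.33, and Itgad had a lower mean, by -0.41. The second, dimmer Itgad row did not share this fall, with a difference of 0.0033. The Itgax value rests on VHL-KO 1, which read 6.09 against 5.25 and 5.09 in the other VHL-KO arrays, and without that array the difference was 0.18. VHL-KO 1 was also high for the 8 macrophage markers (list mean 7.51 against 6.76 and 6.85) and for the 8 lymphocyte markers (5.35 against 4.79 and 4.74), with 0 of either list called by limma in VHL-KO against control (0 and 1 at an unadjusted p under 0.05), and their part was not tested. Lamc1 read 7.92, 7.68 and 7.81 in the controls and 8.20, 8.32 and 8.23 in the VHL-KO arrays, without overlap (limma adjusted p = 0.2). In all, 8 members lay higher and 1 (Itgad, by its brighter row) lower without overlap, against 11.8% and 5.33% of all genes (17.2% in either direction). Lama4 separated in the same way (limma adjusted p = 0.272), and passed without AKI 4 (limma adjusted p = 0.0239). The endothelial list moved with these chains. Its mean ranged from 9.27 to 9.38 in the controls and from 9.74 to 10.00 in VHL-KO, with 0 of 8 markers called by limma and 7 of 8 at an unadjusted p under 0.05, and its part in these differences was not tested.

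Vhl deletion in injured kidney was compared between VHL-KO/AKI and AKI, whose 10 arrays were all low for Xist. With all arrays, 1 of the 37 members (2.7%) was called, against 3.88% of all genes (2.48% higher and 1.4% lower). That member was Itgb5. It read 9.29, 9.08, 9.29, 9.31 and 9.18 in the AKI arrays and 9.54, 9.57, 9.70, 9.47 and 9.46 in the VHL-KO/AKI arrays. The 5 deleted arrays all lay above the 5 others and below every control array. The mean rose from 9.23 ± 0.10 to 9.55 ± 0.09 (n = 5 each), which is 1.24-fold higher (log2 difference 0.32, SE 0.06, limma adjusted p = 0.012), and the call held without AKI 4 (0.33, limma adjusted p = 0.00474).

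The promoters of the chains that passed in the Vhl comparisons are printed because hypoxia-inducible factors, which VHL restrains, bind the core letters ACGTG or GCGTG. The sequences are the 250 bases before the RefSeq start in build GRCm38.p6, on the plus strand at chr2:83724147-83724396 for Itgav and chr16:33829415-33829664 for Itgb5, with matches of those letters in capitals.
Itgav: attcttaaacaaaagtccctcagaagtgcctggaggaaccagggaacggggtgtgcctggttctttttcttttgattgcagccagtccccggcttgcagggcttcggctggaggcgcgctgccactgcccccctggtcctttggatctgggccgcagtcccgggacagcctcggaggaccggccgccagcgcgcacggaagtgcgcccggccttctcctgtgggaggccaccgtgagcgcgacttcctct
Itgb5: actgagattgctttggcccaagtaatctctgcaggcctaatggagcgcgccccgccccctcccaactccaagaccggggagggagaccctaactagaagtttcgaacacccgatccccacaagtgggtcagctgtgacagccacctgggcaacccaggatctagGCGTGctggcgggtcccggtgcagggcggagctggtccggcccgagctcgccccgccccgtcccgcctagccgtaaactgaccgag
The Itgav window held no match and the Itgb5 window held GCGTG with its first base 86 bases before the start. Windows were found for 24 members (27 windows), and 22.2% of these held either word on either strand in those 250 bases, in Itga2, Itga9, Itgax, Itgb5, Lamb1 and Lamb3, against 38.6% of the 32851 windows of all genes. Both printed windows were rich in G and C, at 64.4% and 65.2%, with 18 CpG each. A match is a description of the letters and not of binding.

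In injured kidneys, AKI 4 decided how many other chains passed. At an unadjusted p under 0.05 there were 11 members with all arrays, against 3734 of all 19938 genes. Without AKI 4, 8 were called, against 12% of all genes (2384 genes): Itgb5 and Itga8 higher, and Itga2, Itga3, Itga5, Itga6, Itgb1 and Itgb4 lower in VHL-KO/AKI than in AKI. The counts with both AKI 4 and Control 3 left out were also 8, against 11% of all genes.

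Itga6 read 10.81, 10.38, 10.80, 10.29 and 10.44 in the AKI arrays and 9.85, 10.11, 9.48, 10.24 and 10.05 in the VHL-KO/AKI arrays. Itga6 was the 1 member lower without overlap and Itgb5 the 1 higher, against 1.58% and 2.19% of all genes (3.78% in either direction). The difference for Itga6 was -0.60 (SE 0.165, limma adjusted p = 0.0583), and without AKI 4 it was -0.66 (limma adjusted p = 0.0225). Itga5 read 6.51, 6.98, 6.30, 7.13 and 7.33 in the VHL-KO/AKI arrays, with a difference from AKI of -0.66 with all arrays (limma adjusted p = 0.141) and -0.87 without AKI 4 (limma adjusted p = 0.00897). Itga8 differed by 0.53 with all arrays (limma adjusted p = 0.194) and by 0.75 without AKI 4 (limma adjusted p = 0.00876). AKI 4 lay inside the VHL-KO/AKI range for Itga5 and beside its upper end for Itga8. Without VHL-KO/AKI 5, 6 members were called, namely Itgb5 and Itga1 higher and Itga2, Itga3, Itga6 and Lama5 lower (7.98% of all genes), and without Control 2 Itga6 was called beside Itgb5 (2.91% of all genes).

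Markers of cell types differed between the same groups, in which 2.48% of all genes were called higher and 1.4% lower. Of 8 neutrophil markers, S100a8 and S100a9 were called lower in VHL-KO/AKI than in AKI and 6 had an unadjusted p under 0.05, with list means from 4.63 to 5.36 and from 5.17 to 6.05. Of 8 injured-tubule markers, Krt8 and Krt18 were called lower, with list means from 9.23 to 10.37 in VHL-KO/AKI and from 9.32 to 10.39 in AKI. Of 3 thick ascending limb markers, Kcnj1 was called higher, with list means from 10.67 to 11.83 and from 10.06 to 11.53, where AKI 4 was the highest AKI array. Smooth muscle and fibroblast markers, 9 in all, had 1 called higher and 2 called lower. Their list means ran from 7.98 to 8.20 in VHL-KO/AKI and from 7.88 to 8.19 in AKI. Among the 8 endothelial markers, 1 was called higher and 5 had an unadjusted p under 0.05. That list mean ran from 9.09 to 9.42 in VHL-KO/AKI and from 8.93 to 9.12 in AKI. The part of these lists in the member differences between the injured groups was not tested.

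**Figure D4:**
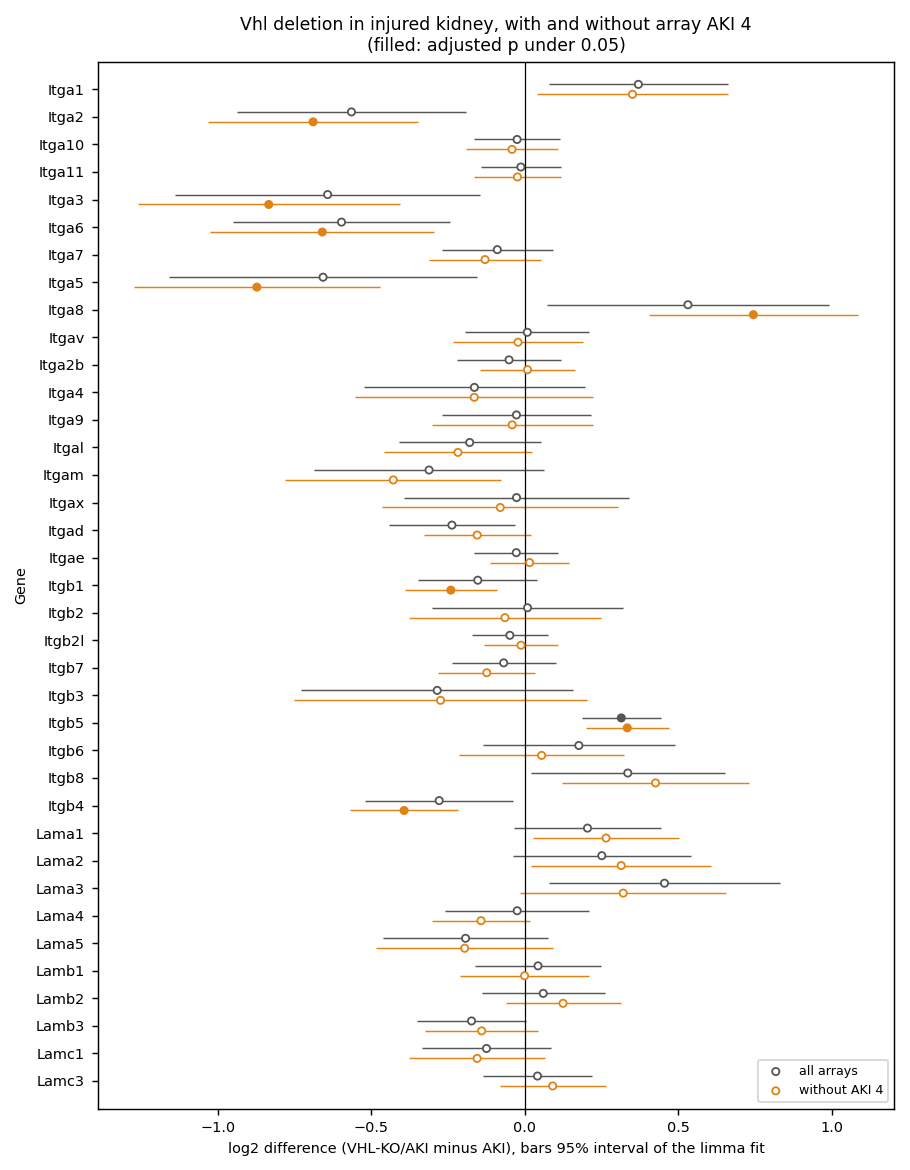
Points are log2 differences VHL-KO/AKI minus AKI for the chains, with 95% intervals of the limma fit, from all arrays and from the arrays without AKI 4; filled points passed the test. Itgb5 is filled in both fits, while Itga8, Itga2, Itga3, Itga5, Itga6, Itgb1 and Itgb4 are filled without AKI 4 only.

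Across the 17 members called in AKI against control, the VHL-KO/AKI mean lay between the control and AKI means for 16 and beyond AKI for Itgav, which differed from control by 0.35 in VHL-KO/AKI and by 0.34 in AKI. The 17 were chosen by the AKI difference in these same arrays, which favours a VHL-KO/AKI mean nearer control. The count of 16 is therefore no test of Vhl deletion, and no such count was made over all genes. Over all 37 members the VHL-KO/AKI mean lay between the other means for 25, beyond control for 4 and beyond AKI for 8. The VHL-KO/AKI arrays were not alike in this respect. VHL-KO/AKI 5 was the array of its group farthest from the control mean for 14 of the 17 members, and VHL-KO/AKI 1 was the closest for 11.

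Whether injury moved a chain differently with and without Vhl was tested with the interaction, which subtracts the Vhl difference of uninjured kidneys from that of injured ones. With all arrays limma called 0 of the 37 members, against 0.01% of all genes, and 9 members had an unadjusted p under 0.05, as did 2387 of all 19938 genes. The estimates for those with the smallest p were -0.69 for Itgav (SE 0.155, limma adjusted p = 0.116), -0.57 for Lamc1 (limma adjusted p = 0.18) and -0.51 for Itgb1 (limma adjusted p = 0.194). Itga5 had the estimate of -1.04 with a 95% interval from -1.86 to -0.21. Without AKI 4, 5 members were called (Itga5, Itga8, Itgav, Itgb1 and Lama4), against 3.11% of all genes, and with AKI 4 and Control 3 both left out 0 were called, against 0.11% of all genes, with 12 members and 3421 of all genes at an unadjusted p under 0.05. A difference between the injury responses with and without Vhl was therefore called or not according to the arrays used.

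Partner genes of the integrins were read from lists chosen by function. The shares of all genes called were 28.1% in AKI against control, 3.88% in VHL-KO/AKI against AKI and 0.527% in VHL-KO against control. Of 20 activators and linkers to actin (60% called), 8 rose and 4 fell in AKI against control. The actin cross-linker Actn1 rose by 1.45 (limma adjusted p = 0.0041), vinculin (Vcl) by 0.91 (limma adjusted p = 0.000139) and zyxin (Zyx) by 0.88 (limma adjusted p = 2e-04). Talin-2 (Tln2) fell by 1.49, kindlin-1 (Fermt1) by 0.53 and tensin-1 (Tns1) by 0.48. Actn1 in AKI 4 was 8.52, within the control range of 8.13 to 8.61, against 10.01 to 10.35 in the other AKI arrays. Of 13 focal adhesion signalling genes (38.5% called), 4 rose (the kinase gene Src by 0.86, the GTPase gene Rap1b by 0.67, the scaffold gene Bcar1 by 0.59, and Git1) and Arhgef7 fell by 0.42. In VHL-KO/AKI against AKI, the parvin gene Parvb was higher by 0.47 (limma adjusted p = 0.00767), and Zyx and Bcar1 were lower by 0.49 and 0.37.

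Among 11 matrix ligands other than laminin (63.6% called, against 28.1% of all genes), 4 rose and 3 fell in AKI against control. Ccn1, a secreted ligand of alphav and alpha6 integrins, read 7.94, 7.52 and 7.80 in the controls, 10.00, 10.59, 10.41, 10.65 and 10.49 in the AKI arrays and 8.79, 9.16, 9.01, 9.30 and 9.87 in the VHL-KO/AKI arrays. The 3 groups did not overlap, with a rise of 2.67 in AKI (SE 0.197, limma adjusted p = 1.54e-06) and a difference of -1.20 between VHL-KO/AKI and AKI (SE 0.171, limma adjusted p = 0.00195). Tenascin-C (Tnc) rose by 1.56, Ccn2 by 1.37 and thrombospondin-1 (Thbs1) by 0.997. Fbln5 fell by 1.66, and fibronectin (Fn1) fell by 0.67 (limma adjusted p = 0.0494). Nephronectin (Npnt), the kidney ligand of the integrin that holds alpha8, read 10.25, 10.07 and 9.73 in the controls and 8.49, 8.64, 8.79, 9.31 and 8.67 in the AKI arrays, a fall of 1.24 (SE 0.193, limma adjusted p = 0.000313), so Npnt and Itga8 fell in the same comparison. In VHL-KO against control, Ccn2 was higher by 0.98 (limma adjusted p = 0.0329).

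Of 11 basement membrane partners of laminin (63.6% called, against 28.1% of all genes), 3 rose (Sparc by 0.50, Col18a1 by 0.48 and nidogen-1, Nid1, by 0.39) and 4 fell in AKI against control. The falls were in Fras1 by 1.19, Frem1 by 0.90 and Frem2 by 0.84, whose proteins form a complex beneath epithelia, and in netrin-4 (Ntn4) by 0.61. The perlecan gene Hspg2 was higher in VHL-KO than in control by 0.50 (limma adjusted p = 0.0439). Of 10 laminin receptors that are not integrins (50% called), syndecan-1 (Sdc1) rose by 0.88 and Rpsa by 0.49, while dystroglycan (Dag1) and utrophin (Utrn) both fell by 0.64 and Bcam fell by 0.52. Dag1 and Sgcd were higher in VHL-KO/AKI than in AKI, by 0.26 (limma adjusted p = 0.0466) and 0.46 (limma adjusted p = 0.022).

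Of 11 inhibitors and membrane partners (36.4% called, against 28.1% of all genes), Cd9, Cd151 and Tspan4 rose by 0.69, 0.63 and 0.45 and Cd81 fell by 0.50 in AKI against control. All 4 are tetraspanins, membrane proteins that gather integrins. Slc3a2, the heavy chain of amino acid transporters that binds beta1 tails, was lower in VHL-KO/AKI than in AKI by 0.45 (limma adjusted p = 0.0359). Of 4 hemidesmosome partners (75% called in AKI against control), Plec rose by 1.04 and Cd151 rose, while Dst fell by 0.34. Of 9 cell surface ligands (44.4% called in AKI against control), Jam2, Cdh1, Icam1 and F11r rose by 0.89, 0.53, 0.51 and 0.35. Cdh1, which alphaE binds, was lower in VHL-KO/AKI than in AKI by 0.49 (limma adjusted p = 0.0427). Of 10 genes of latent TGF-beta and its release (60% called in AKI against control), Lrrc32, Tgfbr1, Tgfb3 and Tgfbr2 rose by 1.70, 1.13, 0.55 and 0.33, and Tgfb2 and Ltbp1 fell by 0.69 and 0.55.

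**Figure D5:**
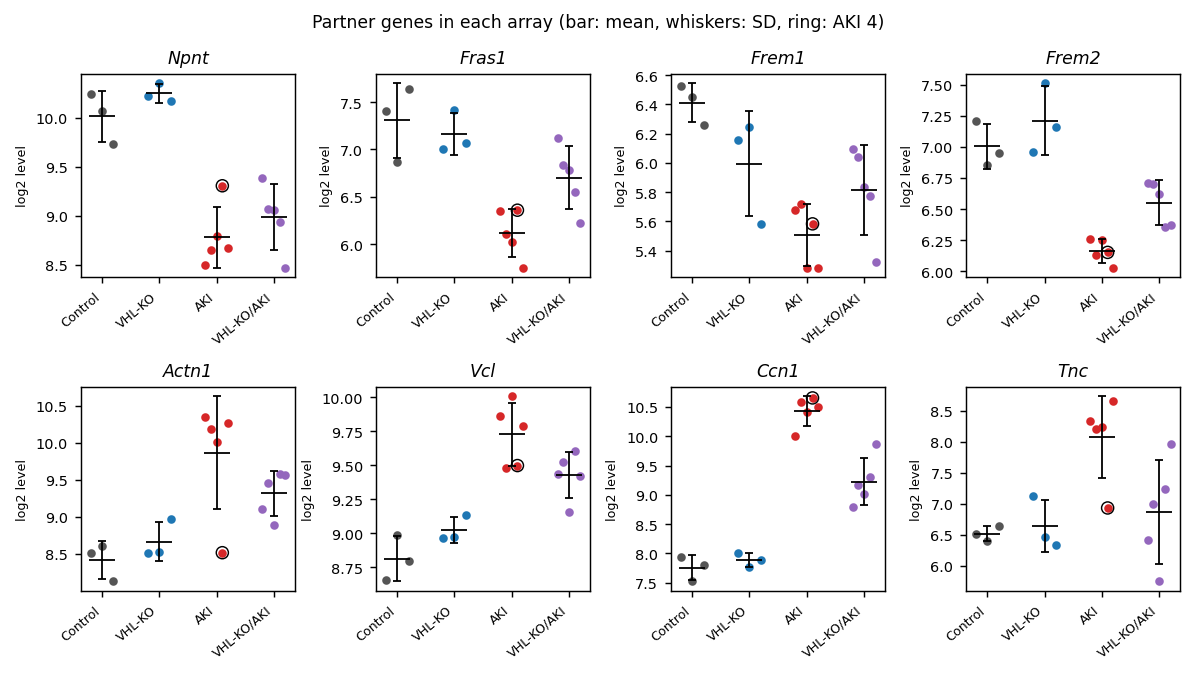
Each panel is 1 partner gene and each point 1 array, on a log2 axis of its own, with group means, SD whiskers and a ring on AKI 4. Npnt, Fras1, Frem1 and Frem2 are lower and Vcl and Ccn1 higher in every AKI array than in every control array, while Actn1 in AKI 4 lies at 8.52, near the controls.

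Tubule markers also fell in AKI against control, with 6 of 7 proximal tubule markers called lower and a list mean from 12.07 to 12.18 in the controls and from 10.23 to 11.68 in the AKI arrays. Of 8 injured-tubule markers, 7 were called higher. Over all genes, 14.9% were called lower and 13.2% higher. The part of these lists in the member differences was not tested.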

How the data were processed

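Total RNA of mouse kidney was measured on single-colour whole-transcript arrays, 1 per animal, and the deposited table gives log2 levels per probe set. The submitters' processing notes name RMA and Partek 6.4, with no order or settings, and the build is not given in the sources used here. RMA evens out the spread of values between arrays, so a change shared by most genes would not be seen.

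The table has 35556 rows, of which the platform annotation pairs 21789 with 1 symbol, 1621 with several and 12146 with none. Where a gene had several rows, the brightest by mean was used. Groups came from the sample titles. limma 3.58.1 (R 4.3.3) fitted 1 mean for each of the 4 groups (12 residual and 2.83 prior degrees of freedom), with 5 comparisons, 2-sided, and Benjamini-Hochberg adjustment over 19938 genes. Identical arrays were looked for and 0 pairs found. Precision is limited by how many arrays each group has.

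The members, the gene lists and the tests were chosen with earlier results of these data known. Values per array are given for called members with a log2 difference of at least 1 and for others that a result turns on, and up to 3 called genes per direction are named from each partner list (others named, which are Thbs1, Ntn4, Git1, F11r and Tgfbr2, were added after their values were seen). On simulated data with 200 changed genes among 19938, the test recovered 86% of 2-fold changes for VHL-KO against control, 93% for AKI against control, 97% for VHL-KO/AKI against AKI, 92% for VHL-KO/AKI against VHL-KO and 77% for the interaction. The simulated noise was normal with 1 spread per gene in all groups, so no array stood apart as AKI 4 does. Changes under 2-fold were not simulated, while the median size of the member differences in AKI against control was 0.34 on the log2 scale. Alternatives were every row with 1 symbol, a filter on dim genes, 3 scalings, a variance trend, array weights, the compared groups only, the replicate number as a block, a sex-linked covariate and each array left out. Leaving out Control 3 and AKI 4 together was added after the data were seen. Promoter windows came from RefSeq (GRCm38.p6) and were used by symbol.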

Additional observations from a re-analysis of the deposited data

Results flagged for a closer look

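Groups of 4 to 10 arrays were tested for a single array far from the rest, in 74 groups of member values. The test flags about 5% of groups by chance, or 3.7 here, and it marked 2. Itgax, an alpha chain of myeloid cells, read 5.79 in AKI 1 against at most 5.24 in the other AKI arrays. Itgb2l, a relative of the leukocyte beta2 chain, read 5.26 in VHL-KO/AKI 1 against at least 5.39 in the others. Neither chain was called in any comparison, and both lie among the dimmer members.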

How the results depend on the processing

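Of 859 refits of the 32 member calls, 736 kept direction and call, 114 lost the call and 9 changed sign. All 9 sign changes came with the sex-linked covariate, which separates nearly the same arrays as injury does: Lama2 0.0766 and Lamb2 0.16 in AKI against control, and Itga11 -0.0837, Itga7 -0.0758, Itga8 0.0622, Itga9 0.0016, Itgav 0.0391, Lama3 -1.26 and Lamb2 0.34 in VHL-KO/AKI against VHL-KO. That covariate left 0 higher and 0 lower members in both injury comparisons (0% of all genes called) and 0 higher in VHL-KO against control (0.0903%). Array weights gave 3 higher and 1 lower in VHL-KO against control (1.6% of all genes called), 4 higher and 6 lower in VHL-KO/AKI against AKI (14.4%), and 5 lower in the interaction (4.44%). With the replicate number as a block, 0 were higher in VHL-KO against control (0.326% of all genes called), and 1 was higher and 6 lower in VHL-KO/AKI against VHL-KO (9.64%). Deviations of same-numbered arrays from their group means correlated at -0.381 to 0.204. Arrays with different numbers were not compared in this way, so these values cannot show whether the numbers pair the arrays. The filter on dim genes gave 1 lower in VHL-KO/AKI against AKI (7.66% of the 11137 genes kept) and 1 higher in VHL-KO/AKI against VHL-KO (22.6%), with 25 members tested. Only the compared groups in the fit gave 0 higher in VHL-KO/AKI against AKI (1.12% of all genes called). Without Control 3 and AKI 4, 0 were higher in VHL-KO against control (0.476% of all genes called), and 2 were higher and 6 lower in VHL-KO/AKI against AKI (11%). With 1 array left out in turn, the counts higher and lower ran from 0 to 2 and 0 to 0 in VHL-KO against control, from 6 to 12 and 6 to 8 in AKI against control, from 1 to 2 and 0 to 6 in VHL-KO/AKI against AKI, from 0 to 4 and 7 to 12 in VHL-KO/AKI against VHL-KO, and from 0 to 1 and 0 to 4 in the interaction. The shares of all genes called moved too. In the same order they ran from 0.171% to 1.18%, 21.3% to 34.2%, 1.15% to 12%, 8.44% to 19.6%, and 0% to 3.11%. The cause of these changes was not tested. With 3 to 5 animals a group, small differences may have been missed, and no detection call was used, so dim members have no stated background.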
